A study of Sus scrofa with 6 samples.

Results

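Kinesins, dyneins, tubulins, centromere proteins and centrosome proteins were compared between porcine oocytes after and before maturation in culture. A gene was included when a probe carried a single symbol starting KIF plus a digit, DYNC, DYNL, TUBA, TUBB, TUBG, TUBGCP, CENP or CEP plus a digit, and the brightest probe by the mean of the 6 arrays stood for a gene. This gave 73 genes on 74 probes, of 10867 named genes and 12258 probes in all. KIF5A was the 1 gene with more than 1 probe. The set held 15 genes grouped as transport kinesins, 4 cilium kinesins, 11 spindle kinesins, 9 dynein subunits, 5 alpha and beta tubulins, 4 members of the gamma-tubulin complex, 11 centromere and kinetochore proteins, and 14 centriole and centrosome proteins. KIF1BP matched the rule by its symbol, although it encodes a protein that binds kinesins and is not a motor. CENPE, TUBG1 and CEP192 were not analysed here.

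Every array was made from a pool of 50 grade I oocytes from pubertal crossbred Landrace gilts, and each group had 3 arrays. The group after maturation came from cumulus-oocyte complexes, which are oocytes within their layer of somatic cumulus cells, cultured for 44 h in medium TCM-199 with bicarbonate, pyruvate, bovine serum albumin, cysteine, porcine follicular fluid, hCG and eCG. The group before maturation, which the titles call in vivo, was taken before that culture. Only 1 group was cultured, so maturation and the culture with its agents cannot be told apart. A dye test (BCB) named in the design text is not assigned to single samples and was not used.

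Meiosis in the oocyte depends on microtubules, polymers of alpha and beta tubulin that are seeded by gamma-tubulin complexes. A fully grown oocyte waits in prophase, then resumes meiosis, builds a spindle and divides unequally, and mammalian oocytes do this without the centrioles that organise the spindle poles of most somatic cells. Kinesins and dynein walk on microtubules or shorten them. Centromere proteins mark the chromosome site to which the kinetochore binds, and cumulus cells use the same motors and tubulins for transport, division and their cilia.

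All levels below are log2 values of the deposited RMA table, and differences are after minus before maturation on that scale. Pearson's r over all probes was 0.994 to 0.995 for pairs of arrays after maturation, 0.989 to 0.993 for pairs before it and 0.965 to 0.983 for mixed pairs, as a description, since probes are no replicates. Of 12 listed oocyte markers 10 were measured. With limma 3 of them were called lower after maturation, KIT (-1.22), ZP3 (-0.70) and ZP4 (-0.40), and 0 higher. Their summed linear signal was 20678 to 21672 per array after and 23047 to 24918 before maturation. GDF9 and BMP15 had mean levels of 11.06 and 12.19 after and 11.01 and 12.07 before maturation and were not called. Of 17 listed cumulus and granulosa markers 13 were measured. With limma 8 of these were called lower, 1 higher (HSD3B1, 3.95) and 4 were not called. The cumulus and granulosa sum was 1939.8 to 2159.6 per array after and 6049.99 to 8076 per array before maturation, and no marker is listed at 0, which RMA does not give. Fewer cumulus cells in a pool, less RNA per cell and changes of single genes within these cells cannot be told apart in these arrays. The part of cumulus RNA in the results below was not tested. Markers of theca and stroma (8 of 9 measured, summed signal of 274 to 295 after and 280 to 333 before maturation), endothelium (5 of 7, 328 to 406 and 329 to 344) and blood cells (5 of 7, 468 to 485 and 392.3 to 426) had smaller sums. Of the theca and stroma markers 7 of 8 had positive differences, POSTN (1.20) and COL3A1 (0.37) were called higher, and ACTA2 (-1.93) was called lower. All 5 endothelium markers had positive differences with 0 called by limma, 2 of them at an unadjusted p under 0.05. All 5 blood cell markers were positive too, with CD3E (0.48) called higher. Among all 12258 probes 8016 had positive differences. With 3 arrays in a group, precision is limited.

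Most of the 73 genes did not pass the test, and none of the 11 spindle kinesins did. With limma 4 genes rose after maturation, the cargo kinesins KIF1A, KIF1B and KIF1C and the dynein light chain DYNLT1. The 8 genes that fell were the kinesins KIF5A, KIF16B and KIF21A, the tubulins TUBA1B and TUBB, the dynein subunit DYNC1LI1, the kinetochore protein CENPF and the centrosome protein CEP112. Together 12 of 73 genes were called, 16.4%, against 11.3% of all probes, 2 shares that were not tested against each other. Of all probes 3.21% were called higher and 8.07% lower. Without the dimmest 25% of probes 11 of 69 genes were called, against 15.3% of all probes kept. Among the 73 genes, groups did not overlap for 25, 34.2% of the set, against 36.1% of all probes. Of these 11 were higher and 14 lower after maturation, against 21.7% and 14.4% of all probes. Differences ran from -2.34 to 0.63 with a median of 0.047, against a median of 0.08 over all probes. A difference of 1 is a 2-fold change, and 3 genes fell by at least that much while 0 rose by it.

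All 12 called genes kept their direction under the 14 alternatives, except that KIF1A was not measured where the dimmest 25% of probes were left out. For most of these fits that outcome was fixed in advance. The groups did not overlap for any of the 12 genes, so dropping 1 array could not turn a direction. The replicate block, the trend and robust settings and the filter for dim probes leave a gene's difference as it is. Only 5 of the 12 genes were called without any 1 of the 6 arrays, namely KIF5A, KIF16B, KIF21A, KIF1C and TUBA1B. Dropping replicate 1, 2 or 3 of the arrays after maturation left 2, 1 and 1 genes called higher and 4, 4 and 6 called lower. Dropping replicate 3 of the arrays before maturation left 2 called higher and 5 lower. Over all probes these 4 fits called 5.17%, 5.42%, 7.69% and 7.77%, against 11.3% with all arrays. Holding the mean of 41 ribosomal protein probes level added 0.50 to every difference, moved the median of all probes to 0.58 and gave 56 genes called higher and 5 lower. Of all probes that scaling called 84.4%, 9847 higher and 494 lower. In the set, KIF5A, KIF21A, KIF16B, CEP112 and DYNC1LI1 were the genes called lower under that scaling.

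**Figure D1:**
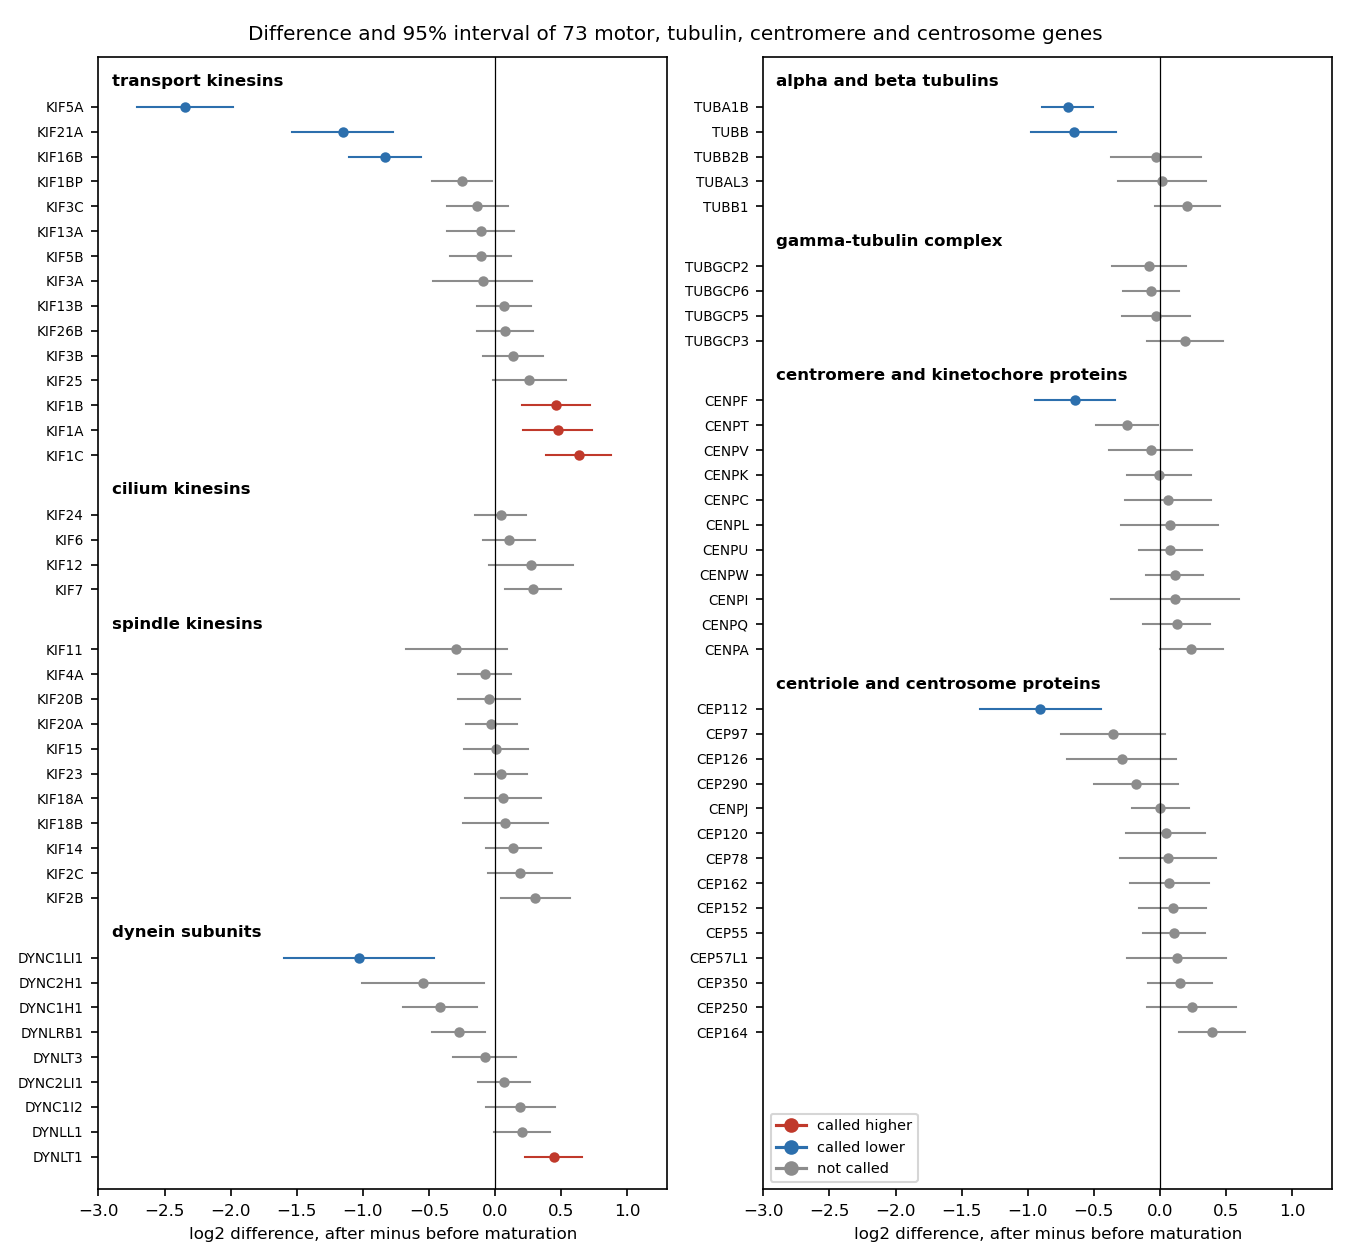
Log2 difference after minus before maturation (x axis) of all 73 genes, grouped by role, with the 95% interval of the limma fit as a line. The 4 genes called higher are red, the 8 called lower are blue and the 61 others are grey, and KIF5A stands farthest from 0 at -2.34.

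The group of transport kinesins took in every kinesin symbol not listed as a spindle or cilium kinesin, KIF1BP among them. This group held 6 of the 12 calls in the set. Among its 15 genes 3 rose and 3 fell, against 3.21% of all probes called higher and 8.07% called lower, and 9 were not called. The median difference was -0.095. KIF5A, a heavy chain of conventional kinesin known from neuronal transport, had levels of 5.42, 5.53 and 5.03 after and 7.82, 7.43 and 7.77 before maturation. All 3 arrays after maturation lay more than 1 log2 unit under the lowest array before it. The level fell 5.08-fold, a difference of -2.34 ± 0.16 (SE, n = 3 each, limma adjusted p = 6.49e-05).

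The probes named KIF5A disagreed. The dimmer one had 4.38, 4.86 and 4.57 after and 4.49, 4.38 and 4.20 before maturation, so its groups overlapped, with a difference of 0.25 ± 0.14 (SE, n = 3 each, limma adjusted p = 0.266). With the mean of both probes as the level of the gene the difference was -1.05 (limma adjusted p = 0.00142). The annotation gives no gene identifier for either probe. The related heavy chain KIF5B, which is active in most cell types, had 9.29, 9.40 and 9.34 after and 9.36, 9.38 and 9.61 before maturation, a difference of -0.11 with a 95% interval of -0.34 to 0.12.

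KIF21A, a kinesin that restrains microtubule growth at the cell cortex, had levels of 4.80, 4.83 and 4.97 after and 5.79, 5.85 and 6.43 before maturation. Replicate 3 was the highest array in both groups, and the groups did not overlap. The gene fell 2.22-fold (-1.15 ± 0.17, SE, n = 3 each, limma adjusted p = 0.00354). KIF16B, a motor of early endosomes, had 7.80, 7.59 and 7.68 after and 8.36, 8.49 and 8.72 before maturation. It fell 1.78-fold (-0.84 ± 0.12, SE, n = 3 each, limma adjusted p = 0.00324). Of 13 cumulus and granulosa markers 8 were also called lower and 1 higher, and of 10 oocyte markers 3 lower and 0 higher. The part of the markers' cells in the falls of KIF5A, KIF21A and KIF16B was not tested.

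The 3 KIF1 genes rose, all of them members of the kinesin-3 family to which KIF16B and the KIF13 genes also belong. KIF1C, a motor of Golgi-derived and secretory vesicles, had 6.51, 6.49 and 6.66 after and 5.92, 5.78 and 6.07 before maturation. It rose 1.55-fold (0.63 ± 0.11, SE, n = 3 each, limma adjusted p = 0.00766). KIF1B, known for the transport of mitochondria and synaptic vesicle precursors, had 8.02, 7.86 and 8.07 after and 7.70, 7.38 and 7.50 before maturation. The groups did not overlap, and the gene rose 1.38-fold (0.46 ± 0.11, SE, n = 3 each, limma adjusted p = 0.0365). KIF1A, best known as a motor of synaptic vesicle precursors in neurons, had 4.36, 4.57 and 4.69 after and 3.97, 4.18 and 4.05 before maturation (0.47 ± 0.11, SE, n = 3 each, limma adjusted p = 0.0333). All 3 arrays before maturation and 1 after it lay under the lower quartile of their array, so the size of that rise is not exact. Differences were also positive for 7 of 8 theca and stroma, 5 of 5 endothelium and 5 of 5 blood cell markers. Among all 12258 probes 8016 were positive. Of these markers POSTN, COL3A1 and CD3E were called higher and ACTA2 lower. The part of the markers' cells in the rises of the KIF1 genes was not tested.

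KIF1A and KIF1B kept differences of 0.40 to 0.56 and 0.39 to 0.55 when any 1 array was dropped, though most of these fits did not call them. Over all probes, dropping 1 array left between 5.17% and 11.8% called. Dropping replicate 2 or 3 after maturation gave KIF1A a limma adjusted p of 0.109 or 0.0963, and dropping replicate 1 or 3 before maturation 0.0707 or 0.0770. For KIF1B the drop of replicate 1, 2 or 3 after maturation gave 0.123, 0.0615 or 0.103, and that of replicate 2 or 3 before maturation 0.0993 or 0.0849. KIF1A was also not called with cyclic loess (0.37, limma adjusted p = 0.0829) or a second quantile normalization (0.38, limma adjusted p = 0.0745). KIF1B was not called with trend and robust set (limma adjusted p = 0.0523).

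Of the kinesin-3 genes grouped as transport kinesins, KIF13A and KIF13B did not pass the test. These motors, which move vesicles and receptors, differed by -0.11 (95% interval -0.36 to 0.14) and 0.07 (-0.14 to 0.27). KIF3A, KIF3B and KIF3C, subunits of the kinesin-2 motor that serves cilia and other cargo, differed by -0.10, 0.13 and -0.14, and their groups overlapped. KIF25 and KIF26B differed by 0.26 and 0.07. KIF1BP had 7.61, 7.60 and 7.61 after and 7.88, 7.71 and 7.99 before maturation, with no overlap between groups and a difference of -0.25 (limma adjusted p = 0.141).

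**Figure D2:**
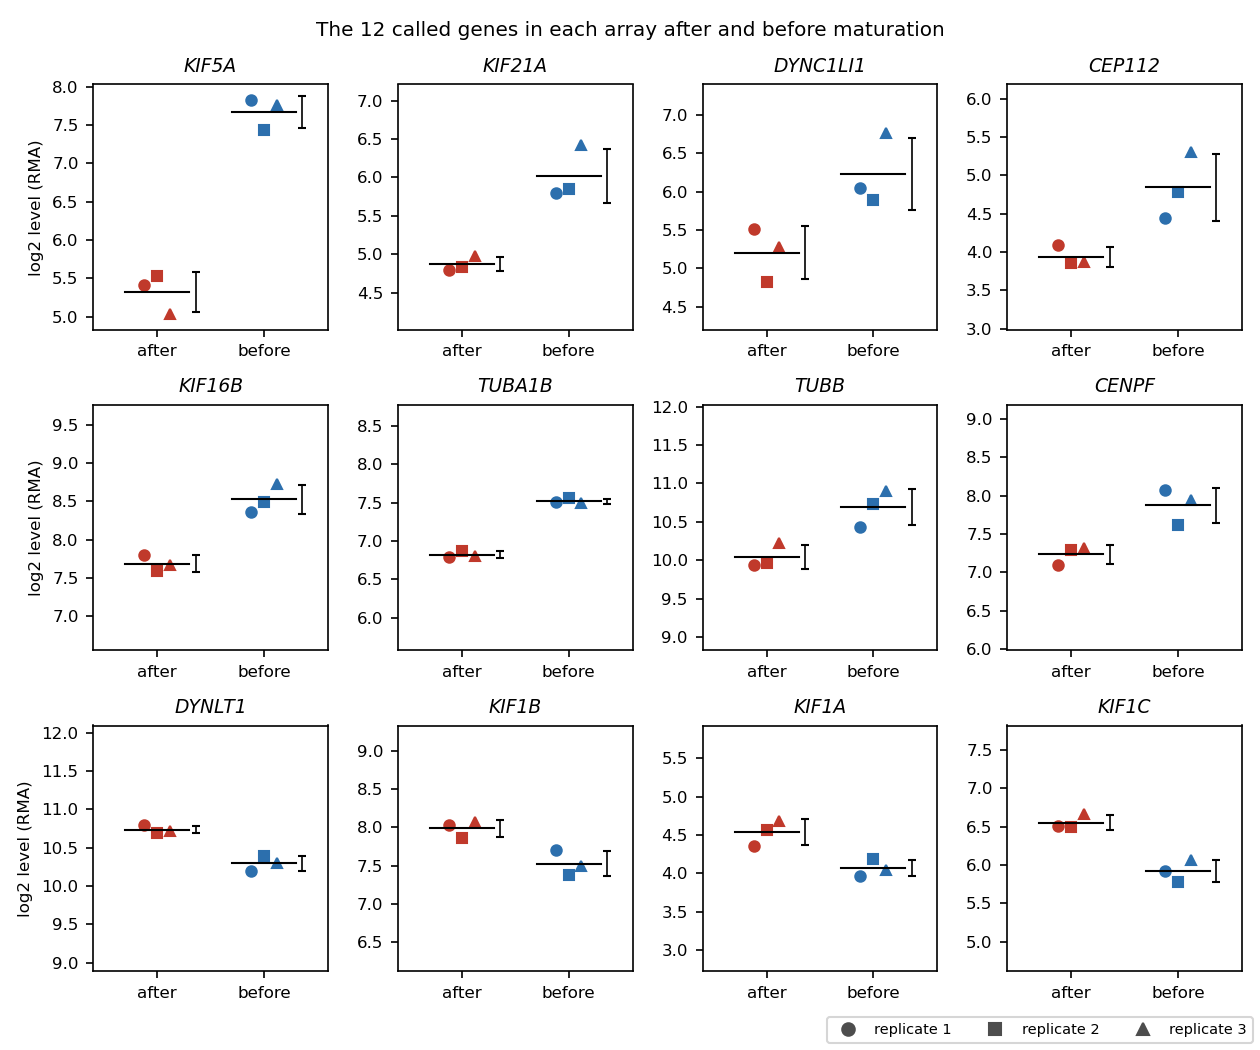
Log2 level (y axis, the same span in each panel) of the 12 called genes in each array after (red, left) and before (blue, right) maturation; marker shapes are replicates, lines are means and bars are the SD (n = 3). Groups do not overlap for any of the 12 genes, and replicate 3 before maturation is the highest array for, among others, KIF21A, DYNC1LI1 and CEP112.

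The cilium kinesins showed small positive values and no calls, against 11.3% of all probes called. KIF7, a Hedgehog pathway protein of the cilium tip, had 6.08, 6.03 and 5.91 after and 5.79, 5.69 and 5.67 before maturation. The groups did not overlap and the difference was 0.29 ± 0.09 (SE, n = 3 each, limma adjusted p = 0.0834). It was called with each array at a common median (0.34, limma adjusted p = 0.0436) and after a second quantile normalization (0.38, limma adjusted p = 0.0362). KIF24, which restrains cilium formation, differed by 0.04 (95% interval -0.15 to 0.24), KIF12 by 0.27 and KIF6 by 0.10. KIF6 lay under the lower quartile on all 6 arrays.

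The spindle kinesins differed little between the groups. Their differences ran from -0.29 to 0.30 with a median of 0.047, and the 95% intervals of the 11 genes together covered -0.68 to 0.56. No gene of the group was called with limma, and 1 (KIF2B) had an unadjusted p under 0.05. Among all 12258 probes 11.3% were called and 3580 had an unadjusted p under 0.05. KIF11, the motor that pushes spindle poles apart, had 8.21, 8.52 and 8.33 after and 8.34, 8.62 and 8.99 before maturation. The groups overlapped, with replicate 3 before maturation highest, and the difference was -0.29 ± 0.17 (SE, n = 3 each, limma adjusted p = 0.275). KIF15, which can share this task with KIF11, differed by 0.007 (95% interval -0.24 to 0.25).

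The kinesins of the central spindle and of polar body cleavage had narrow spreads. KIF20A, a motor of the central spindle needed for cytokinesis, had 9.96, 9.97 and 9.92 after and 9.93, 9.99 and 10.01 before maturation (-0.03 ± 0.08, SE, n = 3 each, limma adjusted p = 0.840). KIF23, a subunit of the centralspindlin complex, had 10.26, 10.36 and 10.24 after and 10.25, 10.25 and 10.21 before maturation (0.05 ± 0.09, SE, n = 3 each, limma adjusted p = 0.739). The differences that the 95% intervals allow were -0.22 to 0.16 for KIF20A and -0.15 to 0.24 for KIF23. KIF14, KIF4A and KIF20B, which also act in cytokinesis or on chromosome arms, differed by 0.14, -0.08 and -0.05. Groups were apart for KIF14 and KIF4A, though neither was called.

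The kinesins that shorten microtubules or align chromosomes gave the same picture. KIF2C, a depolymerase at kinetochores that corrects wrong attachments, had 8.01, 8.08 and 8.23 after and 7.86, 8.06 and 7.84 before maturation (0.19 ± 0.11, SE, n = 3 each, limma adjusted p = 0.267). KIF18A, which limits chromosome movement at the metaphase plate, had 9.41, 9.76 and 9.52 after and 9.34, 9.53 and 9.65 before maturation (0.06 ± 0.13, SE, n = 3 each, limma adjusted p = 0.780). Its relative KIF18B differed by 0.08. KIF2B had the largest positive value at 0.30 (limma adjusted p = 0.122) and lay under the lower quartile on 2 arrays after and 3 before maturation. With the ribosomal protein genes held level 10 of the 11 genes were called higher, and KIF11 was not. That scaling called 84.4% of all probes, 9847 higher and 494 lower.

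**Figure D3:**
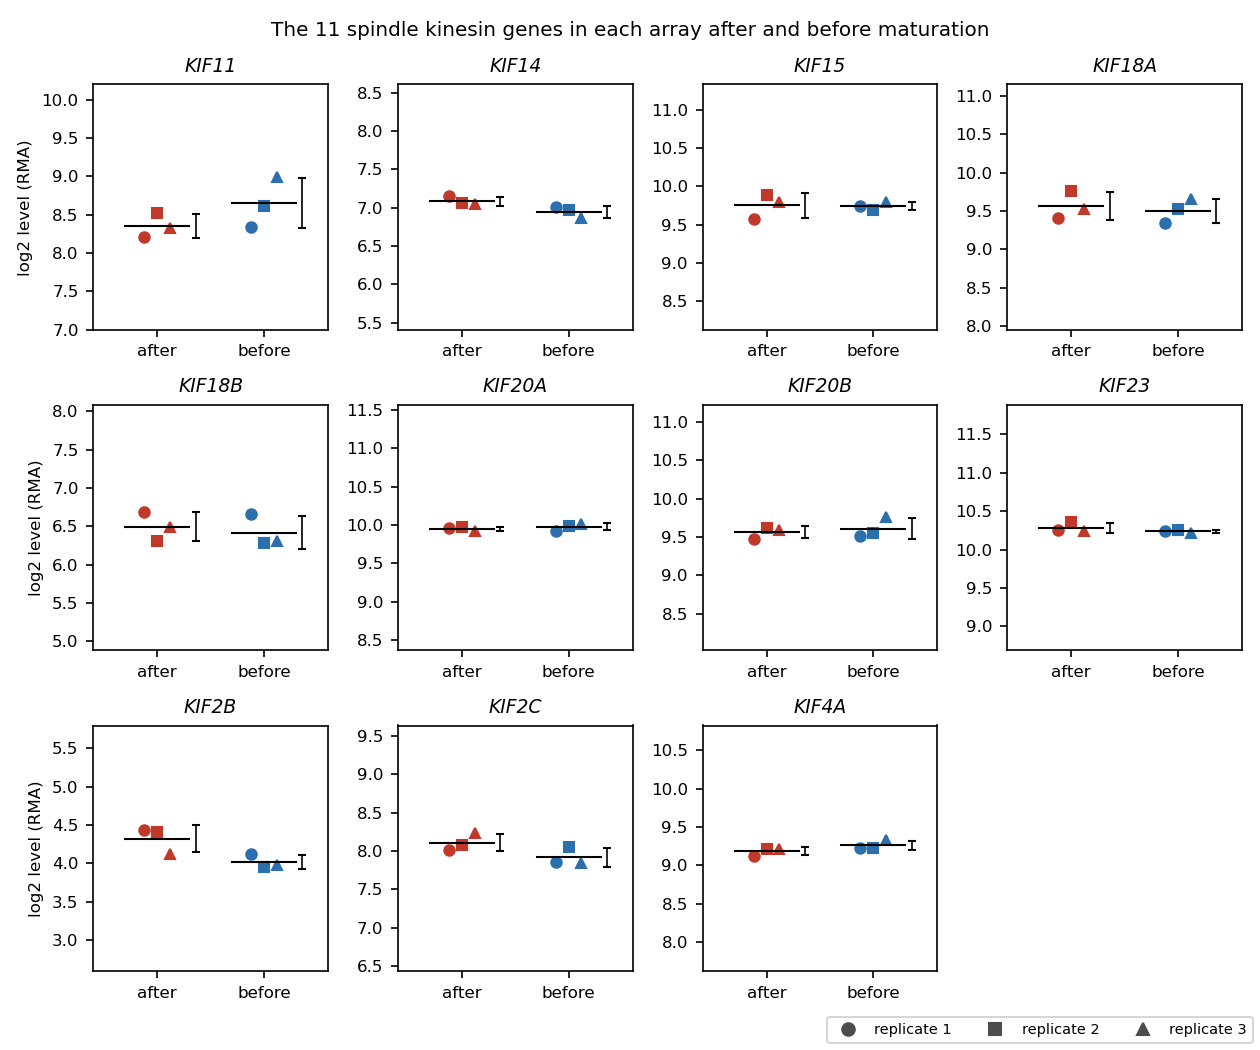
Log2 level (y axis, the same span in each panel) of the 11 spindle kinesin genes in each array after (red, left) and before (blue, right) maturation; marker shapes are replicates, lines are means and bars are the SD (n = 3). The differences run from -0.29 for KIF11 to 0.30 for KIF2B, and the spread is widest for KIF11 before maturation.

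Cytoplasmic dynein 1, the motor that walks toward microtubule minus ends and focuses spindle poles, had subunits that moved in opposite directions. Of the 9 dynein genes 7 were grouped with this motor, and DYNC2H1 and DYNC2LI1 belong to the dynein that works in cilia. Among the 9 genes 1 rose, another fell and 7 were not called, 22.2% called against 11.3% of all probes. DYNLT1, a light chain that binds cargo, had 10.79, 10.70 and 10.72 after and 10.19, 10.40 and 10.30 before maturation. All 3 arrays after maturation were higher than the 3 before it, and the gene rose 1.36-fold (0.44 ± 0.09, SE, n = 3 each, limma adjusted p = 0.0210). DYNC1LI1, a light intermediate chain that links the motor to its adaptors, had 5.51, 4.83 and 5.28 after and 6.05, 5.89 and 6.77 before maturation. It fell 2.04-fold (-1.03 ± 0.25, SE, n = 3 each, limma adjusted p = 0.0338), with the widest standard error in the set.

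With 1 array dropped the difference of DYNLT1 stayed between 0.39 and 0.49 and that of DYNC1LI1 between -1.20 and -0.76, while some fits lost the call. Without replicate 1, 2 or 3 after maturation the limma adjusted p was 0.0883, 0.0599 and 0.0590 for DYNLT1 and 0.0608, 0.119 and 0.0770 for DYNC1LI1. DYNC1LI1 also lost the call without replicate 3 before maturation, where its difference was -0.76 (limma adjusted p = 0.0527). Like DYNC1LI1, 8 of 13 cumulus and granulosa markers were called lower, with 1 higher, and 3 of 10 oocyte markers were lower, with 0 higher. Theca, endothelium and blood cell markers mostly had the sign of DYNLT1 (7 of 8, 5 of 5 and 5 of 5 positive). So did 8016 of all 12258 probes. The part of the markers' cells in either change was not tested.

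The heavy chains, which carry the motor itself, were lower in value. DYNC1H1, the heavy chain of dynein 1, had 6.40, 6.22 and 6.57 after and 6.86, 6.66 and 6.93 before maturation. The groups did not overlap, the difference was -0.42 ± 0.12 (SE, n = 3 each, limma adjusted p = 0.0639), and with the replicate block it was called (limma adjusted p = 0.0265). With the ribosomal protein genes held level the difference of DYNC1H1 was 0.084 and not called. DYNC2H1, the heavy chain of the dynein that works in cilia, had 4.87, 4.59 and 4.52 after and 4.97, 4.96 and 5.69 before maturation (-0.55 ± 0.20, SE, n = 3 each, limma adjusted p = 0.118).

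The remaining subunits stayed within a narrow range of values. DYNLL1, a hub light chain that also serves many proteins outside dynein, had 11.61, 11.70 and 11.56 after and 11.43, 11.49 and 11.34 before maturation (0.20 ± 0.09, SE, n = 3 each, limma adjusted p = 0.185). DYNLRB1, a roadblock light chain, differed by -0.28 (limma adjusted p = 0.0810), and it was called lower with cyclic loess and with trend and robust set. DYNC1I2, the intermediate chain that holds the complex together, differed by 0.19, DYNC2LI1 by 0.07 and DYNLT3 by -0.08. The groups were apart for 7 of the 9 subunits, against 36.1% of all probes. Of these 3 were higher and 4 lower, against 21.7% and 14.4% of all probes. Light chains have close copies in the genome, so a probe may read more than 1 of them.

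Of the 5 alpha and beta tubulins 2 fell, TUBA1B and TUBB, and 3 were not called, 40% called against 11.3% of all probes. TUBA1B, an alpha tubulin used in most tissues, had 6.79, 6.87 and 6.80 after and 7.51, 7.56 and 7.50 before maturation. Replicates lay close together in both groups, and the gene fell 1.62-fold (-0.70 ± 0.08, SE, n = 3 each, limma adjusted p = 0.00142). TUBB, a beta tubulin of most tissues, had 9.94, 9.96 and 10.22 after and 10.44, 10.74 and 10.91 before maturation. It fell 1.57-fold (-0.65 ± 0.14, SE, n = 3 each, limma adjusted p = 0.0222).

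TUBB kept a difference of -0.78 to -0.55 when 1 array was dropped. It lost its call when replicate 1 or 2 after maturation was dropped (limma adjusted p = 0.0940 and 0.0887), or replicate 2 or 3 before maturation (0.0627 and 0.0530). Neither tubulin was called when the ribosomal protein genes were held level, at -0.20 for TUBA1B and -0.15 for TUBB. Like both tubulins, 8 of 13 cumulus and granulosa markers were called lower, with 1 higher, and 3 of 10 oocyte markers were lower, with 0 higher. The part of the markers' cells in these falls was not tested. The pig genome holds further tubulin genes of very similar sequence, and how far a probe tells them apart is uncertain.

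The other alpha and beta tubulins were not called. TUBAL3, an alpha tubulin-like gene and the brightest of this group, had 11.30, 11.34 and 11.46 after and 11.57, 11.46 and 11.02 before maturation. Its groups overlapped, with replicate 3 before maturation lowest, and the difference was 0.02 ± 0.15 (SE, n = 3 each, limma adjusted p = 0.948). TUBB2B, known from neurons, and TUBB1, known from platelets, differed by -0.03 and 0.21. TUBB1 lay under the lower quartile on all 6 arrays.

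The gamma-tubulin complex, which seeds new microtubules, had no called gene among 4 and no gene whose groups did not overlap. Over all probes 11.3% were called and 36.1% had groups that did not overlap. TUBGCP3, a core subunit, had 7.43, 7.19 and 7.37 after and 7.28, 7.23 and 6.92 before maturation (0.19 ± 0.12, SE, n = 3 each, limma adjusted p = 0.341). TUBGCP5 differed by -0.03 (95% interval -0.28 to 0.22), and TUBGCP2 and TUBGCP6 by -0.08 and -0.07. An unadjusted p under 0.05 was reached by 0 of the 4 genes and by 3580 of all 12258 probes.

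Of 11 centromere and kinetochore genes 1, CENPF, fell and 10 did not pass the test, 9.09% called against 11.3% of all probes. CENPF, a large protein of the outer kinetochore whose level in somatic cells peaks before division, had 7.09, 7.29 and 7.32 after and 8.07, 7.62 and 7.94 before maturation. The groups did not overlap, and the gene fell 1.56-fold (-0.64 ± 0.13, SE, n = 3 each, limma adjusted p = 0.0189). CENPF kept a difference of -0.77 to -0.54 when 1 array was dropped. It lost its call when replicate 1 or 2 after maturation (limma adjusted p = 0.0840 and 0.0617) or replicate 3 before maturation (0.0504) was dropped. Holding the ribosomal protein genes level also ended it (-0.14, limma adjusted p = 0.431). Like CENPF, 8 of 13 cumulus and granulosa markers were called lower, with 1 higher, and 3 of 10 oocyte markers were lower, with 0 higher. The part of the markers' cells in this fall was not tested.

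CENPA, the histone H3 variant that marks the centromere, had 9.68, 9.49 and 9.56 after and 9.50, 9.26 and 9.27 before maturation. The groups overlapped, since the lowest array after maturation lay just under the highest before it, and the difference was 0.24 ± 0.11 (SE, n = 3 each, limma adjusted p = 0.178). CENPC, which joins this histone to the kinetochore, had 9.14, 9.34 and 9.27 after and 8.88, 9.34 and 9.36 before maturation (0.06 ± 0.14, SE, n = 3 each, limma adjusted p = 0.806). CENPV had 9.97, 10.02 and 10.21 after and 10.03, 10.41 and 9.96 before maturation (-0.07 ± 0.14, SE, n = 3 each, limma adjusted p = 0.761).

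The constitutive network of the inner kinetochore, of which 8 subunits were in the table, had no call, against 11.3% of all probes called. Its differences ran from -0.25 for CENPT to 0.13 for CENPQ, with a median of 0.075 against 0.08 over all probes. CENPT, a histone-fold protein that reaches the outer kinetochore, had 6.31, 6.25 and 6.37 after and 6.52, 6.72 and 6.45 before maturation, with no overlap (limma adjusted p = 0.151). Its partner CENPW differed by 0.11, CENPI by 0.11, CENPL by 0.07, CENPU by 0.08 and CENPK by -0.01. CENPI had the widest interval of these, -0.37 to 0.60, with levels of 8.35, 8.49 and 8.29 after and 7.75, 8.34 and 8.69 before maturation.

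Of 14 centriole and centrosome genes 1, CEP112, fell and 13 did not pass the test, 7.14% called against 11.3% of all probes. CEP112, a coiled-coil protein of the centrosome, had 4.09, 3.86 and 3.87 after and 4.44, 4.78 and 5.30 before maturation. It fell 1.87-fold (-0.90 ± 0.20, SE, n = 3 each, limma adjusted p = 0.0249). All 3 arrays after maturation lay under the lower quartile, so the fold is not exact. CEP112 kept a difference of -1.11 to -0.67 when 1 array was dropped. It lost its call when replicate 1, 2 or 3 after maturation (limma adjusted p = 0.0681, 0.0962 and 0.0749) or replicate 2 before maturation (0.0563) was dropped. Like CEP112, 8 of 13 cumulus and granulosa markers were called lower, with 1 higher, and 3 of 10 oocyte markers were lower, with 0 higher. The part of the markers' cells in this fall was not tested.

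CEP164, a protein of the distal appendages that anchor a cilium, had 7.62, 7.65 and 7.48 after and 7.35, 7.18 and 7.03 before maturation. The groups did not overlap, and the difference of 0.39 ± 0.11 narrowly missed the threshold (SE, n = 3 each, limma adjusted p = 0.0554). It was called higher with the replicate block (limma adjusted p = 0.0368), and also with all arrays set to 1 median, after a second quantile normalization and without replicate 1 before maturation. CEP97, which caps centrioles, had a difference of -0.36 (limma adjusted p = 0.205) and was called lower with the block (limma adjusted p = 0.0442). CEP55, which acts in the last step of cytokinesis, had 6.94, 6.89 and 6.89 after and 6.65, 6.80 and 6.96 before maturation (0.10 ± 0.10, SE, n = 3 each, limma adjusted p = 0.529).

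The remaining centriole and centrosome genes had differences from -0.29 to 0.24 and were not called. CENPJ, which sets centriole length despite its centromere symbol, had 7.28, 7.20 and 7.25 after and 7.34, 7.25 and 7.13 before maturation, a difference of 0.002 with a 95% interval of -0.21 to 0.22. CEP152, which recruits the kinase that starts centriole duplication, had 9.70, 9.88 and 9.88 after and 9.55, 9.79 and 9.84 before maturation (0.10 ± 0.11, SE, n = 3 each, limma adjusted p = 0.589). CEP120 differed by 0.04, CEP78 by 0.06, CEP162 by 0.07, CEP57L1 by 0.13 and CEP350 by 0.15. CEP250, a linker of paired centrioles, differed by 0.24, and CEP290 and CEP126 by -0.18 and -0.29.

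The arrays before maturation differed among themselves in these genes. Replicate 3 was the highest of the 3 arrays before maturation for 12 of the 14 centriole and centrosome genes, and for 37 of all 73 genes (50.7%), against 32.0% of all probes. The median deviation of the 14 genes from their own 6-array means was 0.012, 0.070 and -0.011 in replicates 1, 2 and 3 after maturation, against -0.17, 0.0013 and 0.18 in those before it. The median SD between replicates of these genes was 0.11 after and 0.25 before maturation, and 0.12 after and 0.13 before maturation over all probes. Without replicate 3 before maturation the median difference of the group was 0.18, and without replicate 1 before maturation it was -0.054, against 0.065 with all arrays. No sign of RNA quality is given for single arrays.

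**Figure D4:**
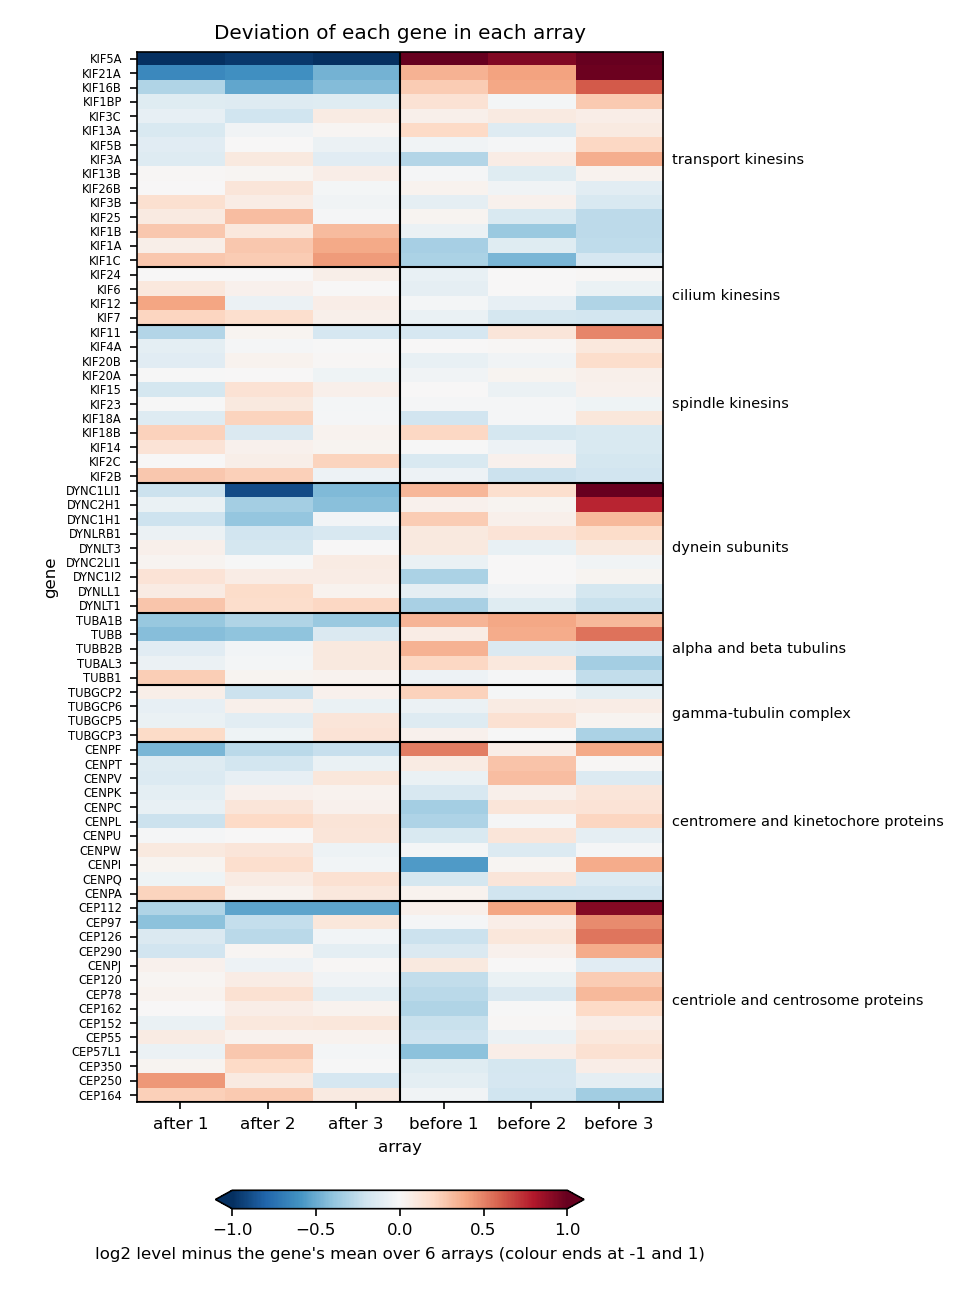
Log2 level of each of the 73 genes (rows, grouped by role) in each array (columns, after maturation left, before maturation right) minus the gene's mean over the 6 arrays; the colour scale ends at -1 and 1. Replicate 3 before maturation is the highest of the arrays before maturation for 12 of the 14 centriole and centrosome genes.

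Genes that work with these proteins were counted from 6 lists matched by name. Among dynactin subunits, dynein adaptors and kinesin partners (21 of 35 listed genes measured) 6 fell and 0 rose with limma, 28.6%, against 11.3% of all probes. TRAK1, an adaptor that ties mitochondria to kinesin, fell by 2.09 and had levels of 5.93 ± 0.17 after and 8.02 ± 0.29 before maturation (SD, n = 3 each, limma adjusted p = 0.000112). KLC4, a kinesin light chain, fell by 0.61 (5.59 ± 0.11 after and 6.20 ± 0.08 before maturation, SD, n = 3 each, limma adjusted p = 0.00563). The other decreases were those of CAPZA2 (-1.20), an actin-capping subunit also found in dynactin, PAFAH1B1 (-0.62), the dynein regulator LIS1, and the dynactin subunits DCTN2 (-1.03) and DCTN6 (-0.42), which were chosen for naming after their values were seen. The list's median was -0.09.

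Of 26 measured microtubule-associated genes among 46 listed, 1 rose and 3 fell, 15.4% called against 11.3% of all probes. MAP1B, a microtubule stabiliser known from growing axons, rose by 1.48 and had levels of 10.23 ± 0.09 after and 8.75 ± 0.26 before maturation (SD, n = 3 each, limma adjusted p = 0.000374). CDK5RAP2, which tethers gamma-tubulin complexes to the centrosome, fell by 1.003 and had 7.39 ± 0.19 after and 8.39 ± 0.06 before maturation (SD, n = 3 each, limma adjusted p = 0.00113). The others called lower were MAP1A (-0.83) and CLASP1 (-0.86), a plus-end protein, named after their values were seen. The list's median was 0.042.

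Among all 12258 probes 11.3% were called, and 3580 had an unadjusted limma p under 0.05. The outer kinetochore and spindle checkpoint list had 0 calls with limma among 13 measured genes of 36 listed, with 1 gene at an unadjusted p under 0.05. Its differences ran from -0.33 to 0.16 with a median of -0.012. The centriole and pericentriolar list also had 0 calls among 11 measured of 24 listed, with 3 genes at an unadjusted p under 0.05, and its differences ran from -0.34 to 0.24. Of 14 measured genes of tubulin folding and modification among 25 listed, TTLL5, a tubulin polyglutamylase, fell by 0.92 (limma adjusted p = 0.00547) and 0 rose. Of 4 measured spindle kinases and passenger proteins among 14 listed, NEK9, a kinase upstream of spindle pole separation, fell by 1.27 (limma adjusted p = 0.00648) and 0 rose. Like the genes that fell in these lists, 8 of 13 cumulus and granulosa markers were called lower, with 1 higher. So were 3 of 10 oocyte markers, with 0 higher. The part of the markers' cells in these falls was not tested.

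**Figure D5:**
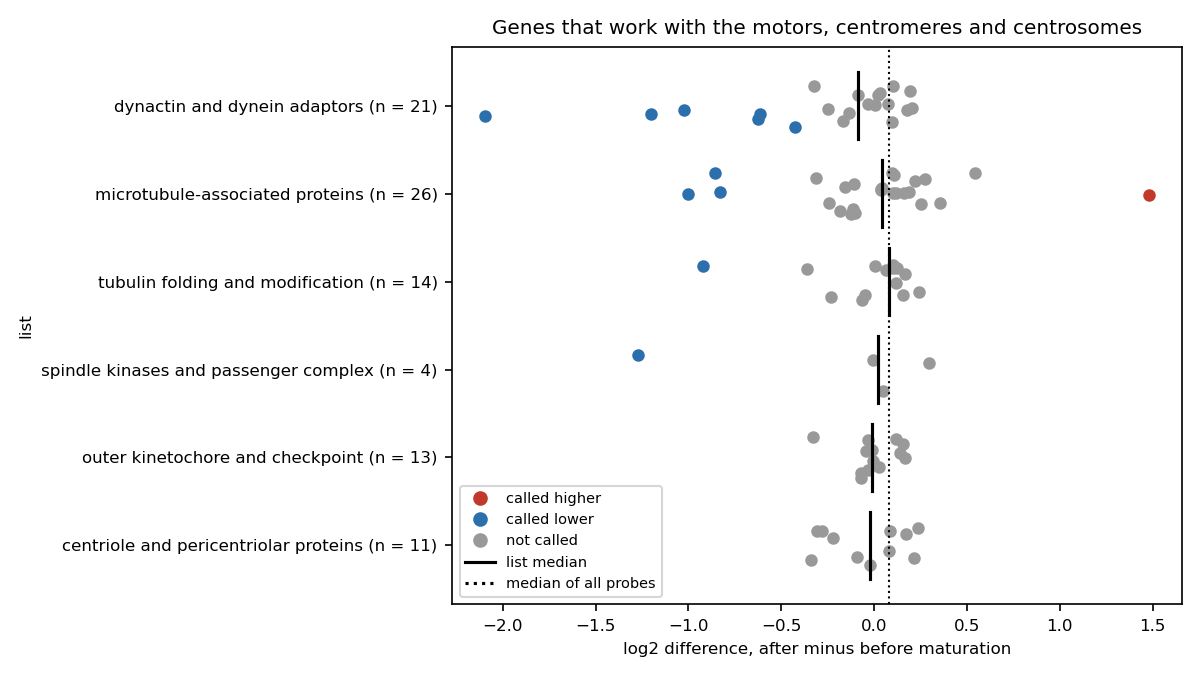
Log2 difference after minus before maturation (x axis) of each measured gene of the 6 partner lists (y axis), with the list median as a solid bar and the median of all probes (0.08) as a dotted line; vertical scatter within a list is for display. The genes called lower are blue, MAP1B, the 1 called higher, is red at 1.48, and TRAK1 lies lowest at -2.09.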

How the data were processed

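Each of the 6 arrays measured RNA of a pool of 50 oocytes. The deposited table holds log2 expression values that the authors made with RMA, per the submitters' processing notes. RMA in its common form removes background, gives all arrays the same distribution by quantile normalization and summarises the probes of a set. The sources used here state neither its version nor its options, and the log base was inferred from the range of values. Detection calls were not used, so no level is stated to lie above background.

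Probe names came from the platform's annotation. A symbol entered more than once for 1 probe was read as 1 symbol, which applied to 4 probes of the genes described. Of 12258 probes 10922 had 1 symbol, 268 had several and 1068 had none listed. A look-up of gene identifiers in RefSeq names for Sscrofa11.1 changed none of the 73 symbols. The probes of KIF5A, KIF1A, KIF13B, CEP164 and CENPJ carry no gene identifier, so the look-up could not check those symbols. Role groups and lists were written by hand, and genes and lists were chosen with earlier results of these data known.

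The test was limma 3.58.1 (R 4.3.3) by lmFit and eBayes on every probe. It was two-sided, differences were after minus before maturation, and p-values were adjusted by Benjamini-Hochberg across the 12258 probes. A probe was called at an adjusted p under 0.05. In a simulated table of this size and comparison the fit called 40 of 40 probes changed by -2, 37 of 40 changed by -1, 36 of 40 changed by 1, and 7 and 10 of 40 changed by 0.5 and -0.5 on the log2 scale. Of 12058 unchanged probes it called 9. The share of changed probes there was smaller than the share called in these arrays. The simulated noise followed limma's own variance model, so these rates need not hold for the real arrays. Further software was Python 3.11.15, pandas 2.3.3 and, for figures, matplotlib 3.10.9.

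Genes named by rule were those called, in each role group the brightest, that with the smallest p and that with the largest difference, up to 2 called genes of each partner list by smallest p, and 17 fixed symbols of which 13 were in the table. Other genes are named to account for the whole set, with their values already seen. Deviations from the group means correlated at 0.283, 0.120 and 0.142 between arrays of the same replicate number. Between arrays of different replicate number the correlations were -0.168 to 0.0191. By these values the arrays pair by number. That pairing comes from the data and not from the labels. The fit without the block was kept for the counts and p-values reported, and the blocked value is given where it changes a call. With the block 5 genes were called higher and 10 lower, and 15.1% of all probes were called, against 11.3% without it. The labels call the pools biological replicates, and p-values cover the spread between them. With 3 arrays in each group the smallest two-sided p of an exact permutation test is 0.1.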

Additional observations from a re-analysis of the deposited data

How the results depend on the processing

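Of the 73 genes 4 were called higher and 8 lower as reported. Leaving out 1 array at a time gave 1 to 4 higher and 4 to 8 lower, with the median difference between -0.024 and 0.059 and the median relative to all probes between -0.11 and -0.016. Over all probes these fits called between 5.17% and 11.8%, against 11.3% with all arrays. The median difference of the genes was -0.0058 with cyclic loess and 0.10 after setting all arrays to 1 median, and its value relative to all probes was 0.00012 after a second quantile normalization. With the ribosomal protein genes held level 56 genes were called higher and 5 lower at a median of 0.55. Among all probes 84.4% were called under it, 9847 higher and 494 lower. By its construction this scaling adds the same amount to every difference, and under it 14 genes with negative differences as reported turned positive and were called, among them CENPV (0.43), TUBGCP5 (0.47), KIF20A (0.47) and KIF5B (0.39). The replicate block called 5 genes higher and 10 lower, adding CEP164, CEP97 and DYNC1H1, and changed no other call. With it 15.1% of all probes were called, 621 higher and 1226 lower. Leaving out the dimmest 25% of probes kept 69 genes and 11 of the 12 calls, and ended that of KIF1A, whose probe was left out. Of all probes kept in that fit 15.3% were called. The cause of the other changes was not tested. Background signal, saturation and cross-hybridisation of close copies were not assessed.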
